A study of Mus musculus with 4 samples.

Results

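Chromatin modifiers are enzymes and complexes that add, remove or read chemical marks on histones and DNA, or that move nucleosomes. Acetyltransferases and deacetylases, methyltransferases and demethylases act in opposition on the same residues, bromodomain proteins bind acetylated lysines, and the SWI/SNF and CHD remodellers use ATP to slide or evict nucleosomes. Many of them counter or work beside Polycomb: MLL-type methyltransferases and SWI/SNF remodellers are known to oppose Polycomb silencing, and several of these enzymes are studied as dependencies of MLL-rearranged leukaemia. The members described here were taken by gene symbol from the families Kdm, Hdac, Sirt, Setd, Suv, Prdm, Prmt, Kat, Brd, Smarc, Arid, Chd, Dnmt, Tet and Mllt, leaving out Kdm2b, which belongs to a Polycomb complex. This gave 126 symbols with 146 transcripts, of 16545 symbols and 18061 transcripts in the table. The name rule itself uses no measured value.

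RNA-seq was done on 4 samples of MLL-AF9 leukaemic cells, which had been taken from the bone marrow of C57BL/6 mice and kept in liquid culture. All 4 carried the genotype Ring1a-/-;Ring1bf/f Cdkn2a-/-, that is, by the labels, loss of RING1A and of the tumour suppressor locus Cdkn2a in controls and treated cells alike, and a floxed allele of RING1B, the remaining catalytic subunit of Polycomb repressive complex 1. Cells received OHT (in common usage hydroxytamoxifen) or the solvent EtOH for 72 h, with 2 samples each. Neither the recombinase nor the origin of the 2 samples of a group is given in the labels, and p-values therefore reflect no more than the variation among these 4, which may be technical, and cells given OHT without a floxed allele were not analysed here. The question was which chromatin enzymes changed their transcript level in cells given OHT.

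The deposited table holds 1 mean per group, and the whole reads of both libraries behind each mean were worked out from it. The libraries are given the letters A and B within a group, which carry no link to the labelled replicates, and they held 3841243 to 6255320 reads. Values are normalised reads, that is solved reads divided by the size factor of the library and summed over the transcripts of a symbol. The targeted gene Rnf2 was not lower with OHT: its libraries lay at 687 and 583 with EtOH and 716 and 797 with OHT, and reads summed along all exons of Rnf2 are no test of whether the floxed exons were lost. Reads were also assigned to both genes that the genotype gives as deleted: Cdkn2a had 107 and 51 reads with EtOH and 89 and 73 with OHT, and Ring1 had 60 and 65 with EtOH and 177 and 84 with OHT. Which exons these reads cover was not tested. The myeloid transcription factors Spi1 (1193 to 1510.4 over the libraries) and Cebpa (1008 to 1291) were present. The T-cell markers Cd3d, Cd3g and Cd4 summed to 3.91 at most, and Kit was near 0 (0 to 5.58). The myeloid marker Csf1r rose from 229 and 124 with EtOH to 1471 and 746 with OHT (limma-voom adjusted p = 0.00378). Ptprc (23.4 to 102), Cd33, Itgam and Mpo (18.2 to 351) did not pass the test. Nor did the B-cell marker Cd79b (56.4 to 181). None of the 5 neutrophil markers passed the test, and several differed widely within a group. Elane lay at 110 and 527 with EtOH and at 504 and 160 with OHT. Camp lay at 78.0 and 262 against 332 and 94.9, and Ltf at 376 and 898 against 439 and 191. S100a8 lay at 361 and 656 against 512 and 522. The part of these differences between libraries in the results was not tested. The calls of the erythroid Epor and the stromal Col1a1, with 4 to 7 reads in each EtOH library, are given no weight. The 7 macrophage markers measured had a summed level of 862 to 2402 with EtOH and 3546 to 4859 with OHT. Of these Cd68 rose, Emr1 did not pass the test and Mrc1 was not fitted. Emr1 made up most of the sum in each library (1882 and 634 with EtOH, 2375 and 3315 with OHT). Marco, C1qa, C1qb and C1qc, with 0 to 5 reads in each EtOH library, entered the fit only through the OHT libraries, so their calls are given no weight. Of 14 fitted S-phase genes 8 fell (57.1%) and none rose, beside 5.68% lower and 10% higher of all symbols fitted. Their summed level was 15924 to 19669 with EtOH and 9114 to 10267 with OHT. Fewer cells of a type and less RNA per cell cannot be told apart in such bulk samples.

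Nearly all chromatin genes that passed the test were lower with OHT, and those that did not pass are not shown to be unchanged. Of the 98 members with at least 10 reads in 2 libraries, 7 fell and 1 rose (limma-voom, Benjamini-Hochberg adjusted p under 0.05 over all 11072 symbols fitted). Of all symbols fitted 15.7% passed the test, 5.68% lower and 10% higher, so the share of members that fell, 7.14%, was near the background, and the share that rose, 1.02%, was below it. The members that fell were the arginine methyltransferases Prmt3, Prmt5 and Prmt7, the lysine methyltransferases Setd6 and Suv39h1, the remodeller Chd1l and the bromodomain protein Brd8. The riser was Mllt4, which encodes afadin, an adaptor of cell junctions and not a chromatin enzyme. The authors' deposited table called the transcripts of the same 8 genes, 7 lower and 1 higher of 146. Its background was 1.85% lower and 3.62% higher of all transcripts (5.48% in either direction). The members stood at 4.79% and 0.685%, and at the same 5.48% in either direction. Counted by their libraries alone, 38 of the 98 members had both OHT libraries below both EtOH libraries and 9 had both above, which is 38.8% and 9.18% beside 34.2% and 27.8% of all symbols fitted. A negative log2 fold change was found for 69 of 98 members (70.4%, beside 54.4% of all symbols).

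**Figure D1:**
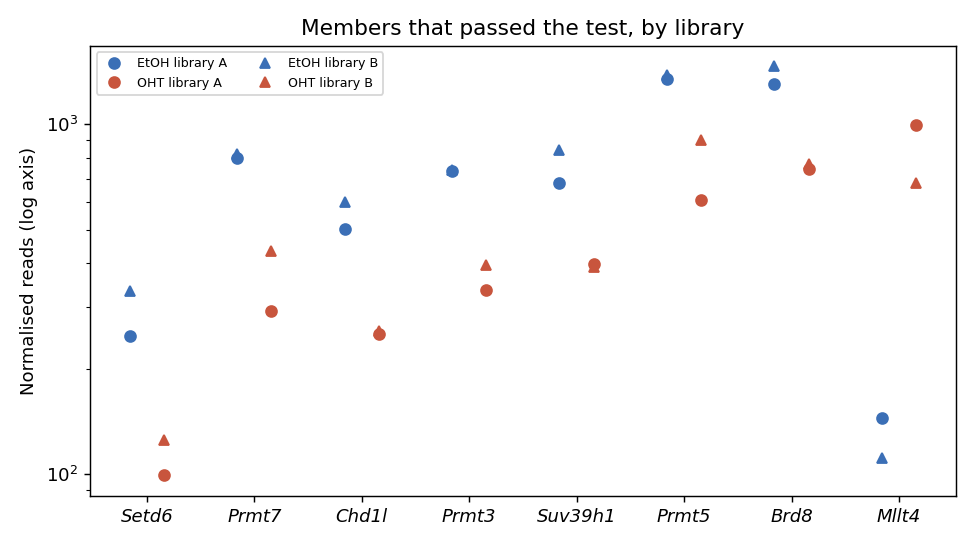
Normalised reads (log axis) of the 8 members that passed the test, with EtOH libraries in blue and OHT libraries in red, circles for library A and triangles for library B. Each of the 7 genes on the left has both OHT libraries below both EtOH libraries, and Mllt4 lies at 144 and 111 with EtOH against 994 and 681 with OHT.

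Of 6 fitted arginine methyltransferases 3 fell (50%), beside 5.68% of all symbols fitted. This was the most of any class, but the class is small and the ranking was made after the values were seen. PRMT enzymes place methyl groups on arginines of histones, splicing factors and other proteins. To show the regions from which the members that moved are transcribed, windows of 300 bases that begin upstream of and run just past the first listed start site of the 3 that fell and of the riser Mllt4 (listed as Afdn) are given from RefSeq (GRCm38.p6), with CpG dinucleotides in capitals, since CpG-rich promoters are where Polycomb and MLL-type complexes are known to dock. The windows are chr7:49778108-49778407 (plus strand) for Prmt3, chr14:54517421-54517720 (minus strand) for Prmt5, chr8:106210804-106211103 (plus strand) for Prmt7 and chr17:13760291-13760590 (plus strand) for Mllt4.
Prmt3: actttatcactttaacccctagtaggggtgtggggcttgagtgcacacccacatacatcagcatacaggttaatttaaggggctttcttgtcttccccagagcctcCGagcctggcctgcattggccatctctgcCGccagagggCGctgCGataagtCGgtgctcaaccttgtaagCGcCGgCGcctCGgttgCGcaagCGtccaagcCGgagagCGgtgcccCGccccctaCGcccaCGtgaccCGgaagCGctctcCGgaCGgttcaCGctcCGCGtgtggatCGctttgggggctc
Prmt5: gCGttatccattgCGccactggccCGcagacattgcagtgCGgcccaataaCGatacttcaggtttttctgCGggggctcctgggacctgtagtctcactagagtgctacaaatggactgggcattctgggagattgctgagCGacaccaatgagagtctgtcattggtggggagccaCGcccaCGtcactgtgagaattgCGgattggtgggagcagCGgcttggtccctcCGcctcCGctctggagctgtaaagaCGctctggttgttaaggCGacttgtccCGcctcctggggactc
Prmt7: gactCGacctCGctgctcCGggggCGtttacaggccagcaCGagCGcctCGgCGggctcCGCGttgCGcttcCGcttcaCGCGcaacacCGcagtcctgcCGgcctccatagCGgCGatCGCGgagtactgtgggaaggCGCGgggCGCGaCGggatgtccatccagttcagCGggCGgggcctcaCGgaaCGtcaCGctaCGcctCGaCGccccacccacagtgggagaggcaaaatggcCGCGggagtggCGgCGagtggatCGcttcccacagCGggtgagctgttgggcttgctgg
Mllt4: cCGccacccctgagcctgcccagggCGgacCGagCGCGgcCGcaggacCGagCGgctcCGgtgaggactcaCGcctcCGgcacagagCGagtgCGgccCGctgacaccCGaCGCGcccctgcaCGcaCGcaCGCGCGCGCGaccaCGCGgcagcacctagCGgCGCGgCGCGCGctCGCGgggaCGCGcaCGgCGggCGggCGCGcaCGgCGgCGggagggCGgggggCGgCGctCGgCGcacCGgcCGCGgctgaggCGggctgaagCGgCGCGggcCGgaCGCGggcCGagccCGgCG

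These windows hold 24 CpG dinucleotides in Prmt3, 16 in Prmt5, 39 in Prmt7 and 62 in Mllt4. The median is 7 over 27025 genes, which were not chosen for expression in these cells. It is 21 over the 101 members found in the promoter table and 22 over the 68 fitted members that did not pass the test. The ratio of observed to expected CpG was 0.637 to 1.07 for the 6 members that fell and have an entry, with a median of 0.881 beside 0.795 for the 68 fitted members that did not pass the test. CpG-dense starts were thus shared by members that passed the test and members that did not. The E-box CACGTG, searched on both strands, was in 1 of the 6, Prmt3, at position 238 of the window, and in 7.24% of all windows. The E2F elements TTTCCCGC, TTTGGCGC, TTTCGCGC and TTTGGCGG, also on both strands, were in none of the 6, in 5 of the 101 members and in 2.42% of all windows. The ETS element CCGGAAGT was in none of the 6, in 6.93% of members and in 4% of all windows.

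Prmt7, an enzyme of arginine monomethylation, lay at 804 and 820.3 normalised reads with EtOH and at 293 and 435 with OHT. Both OHT libraries lay well below both EtOH libraries, with a log2 fold change of -1.20 ± 0.24 (SE, n = 2 a group; limma-voom adjusted p = 0.0110). Prmt3, which methylates the ribosomal protein RPS2, lay at 735 and 738 with EtOH and at 337 and 395 with OHT (log2 fold change -1.02 ± 0.21, limma-voom adjusted p = 0.0129). Prmt5, the main enzyme of symmetric dimethylarginine, lay at 1345 and 1383 with EtOH and at 606 and 903 with OHT, with the OHT libraries far apart (log2 fold change -0.89 ± 0.23, limma-voom adjusted p = 0.0300). Prmt6, named after its values were seen, lay at 221 and 266 with EtOH and 133 and 126 with OHT. Its fall of 0.88 on the log2 scale missed the threshold (limma-voom adjusted p = 0.0503) and passed it in limma-trend (adjusted p = 0.0489). Prmt6 also passed in limma-voom with the filter of 30 reads in 2 libraries (adjusted p = 0.0495) and with its highest transcript alone (adjusted p = 0.0448). Prmt1, the enzyme of most asymmetric dimethylarginine, was close to the floor at 15.8 and 13.0 with EtOH and 5.88 and 3.35 with OHT (log2 fold change -1.57 ± 0.63, limma-voom adjusted p = 0.118). Prmt10 lay at 376 and 267 against 303 and 291, so its groups overlapped, and Prmt2 had 1 or 2 reads in each library. In all, 6 of 6 fitted members of this class had a negative log2 fold change, beside 54.4% of all symbols fitted. Their median was -0.95, where that over all symbols fitted was -0.07. Prmt1, with 19 and 10 reads with EtOH and 7 and 3 with OHT, entered the fit only through its EtOH libraries. Its sign and its part in this count and median therefore lend no support. In the authors' deposited table the means of Prmt7 were 813 and 365 (adjusted p = 0.00231), those of Prmt3 738 and 367 (adjusted p = 0.0143) and those of Prmt5 1365 and 756 (adjusted p = 0.0336).

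Lysine methyltransferases of the Setd and Suv families split by gene. Setd6, which methylates the NF-kB subunit RelA, fell the most, from 248 and 333 with EtOH to 99.1 and 125 with OHT (log2 fold change -1.36 ± 0.29, limma-voom adjusted p = 0.0142). Suv39h1, which trimethylates H3K9 in constitutive heterochromatin, lay at 680.001 and 844 with EtOH and at 399 and 392 with OHT, and the OHT libraries were close together (log2 fold change -0.93 ± 0.22, limma-voom adjusted p = 0.0197). The other 11 fitted members of the class did not pass the test. Setd8, the H4K20 monomethyltransferase, had the highest level per length of all members, 665 normalised reads per kilobase, with a log2 fold change of -0.23 (95% interval -0.68 to 0.23). Setd5 lay at 2149 and 1387 with EtOH and 1765 and 1735 with OHT, so both OHT libraries lay between the EtOH libraries. Setd7, an H3K4 monomethyltransferase, had a log2 fold change of 0.26 (limma-voom adjusted p = 0.473). Setd1a, a methyltransferase of H3K4, lay at 1463 and 1345 against 961 and 1016 (limma-voom adjusted p = 0.107). In this class 2 of 13 fitted members fell (15.4%), beside 5.68% of all symbols fitted. It had 8 of 13 fitted members below 0 and a median log2 fold change of -0.23. No row of the table matched Ehmt or Mll1 to Mll5, and these genes were not analysed here.

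Of 9 fitted CHD remodellers 1 fell (11.1%), and so did 1 of 6 fitted bromodomain genes (16.7%), beside 5.68% of all symbols fitted. Chd1l, a remodeller recruited by poly(ADP-ribose) at DNA damage, lay at 502 and 602 with EtOH and at 252 and 256 with OHT (log2 fold change -1.11 ± 0.23, limma-voom adjusted p = 0.0124). Brd8, a bromodomain subunit of the TIP60 acetyltransferase complex, lay at 1305 and 1466 with EtOH and at 743 and 769 with OHT (log2 fold change -0.87 ± 0.20, limma-voom adjusted p = 0.0181). Both had close OHT libraries and no overlap between groups. Chd4, the ATPase of the NuRD complex, lay at 3897 and 3176 with EtOH and 2826 and 3357 with OHT, with overlapping groups and a log2 fold change of -0.19 (95% interval -0.66 to 0.28). Chd7 lay at 2319 and 2085 against 1885 and 1573 (limma-voom adjusted p = 0.266). Chd1, which binds methylated H3K4, lay at 1746 and 1262 against 989 and 1056 (limma-voom adjusted p = 0.124), and Chd9 at 2622 and 1719 against 1503 and 1359.8 (limma-voom adjusted p = 0.130). Both had OHT libraries under both EtOH libraries. In all 8 of the 9 CHD genes lay below 0, beside 54.4% of all symbols fitted, with a median log2 fold change of -0.33. Brd1 had a log2 fold change of -0.10 (95% interval -0.56 to 0.36). All 6 fitted bromodomain genes lay below 0, with a median of -0.45.

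None of 12 fitted Smarc genes passed the test, although 9 lay below 0 (median log2 fold change -0.23). Smarca5, the ISWI ATPase, lay at 1575 and 1562 with EtOH and at 971 and 1122 with OHT, without overlap (log2 fold change -0.59 ± 0.20, limma-voom adjusted p = 0.0720). Smarcc1, a core SWI/SNF subunit, lay at 1756 and 1484 against 1072 and 1258 (limma-voom adjusted p = 0.146). The SWI/SNF ATPase gene Smarca4 (14.1 and 19.5 against 10.1 and 12.3) and the core subunit gene Smarcb1 (21 and 6 reads against 19 and 13 reads) were near the floor on the transcripts listed. None of 8 ARID genes passed it either (median -0.21). Arid1a, the DNA-binding subunit of canonical SWI/SNF, had a log2 fold change of -0.38 (95% interval -0.83 to 0.07) and Arid2, of the PBAF form, -0.35 (95% interval -0.83 to 0.14).

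**Figure D2:**
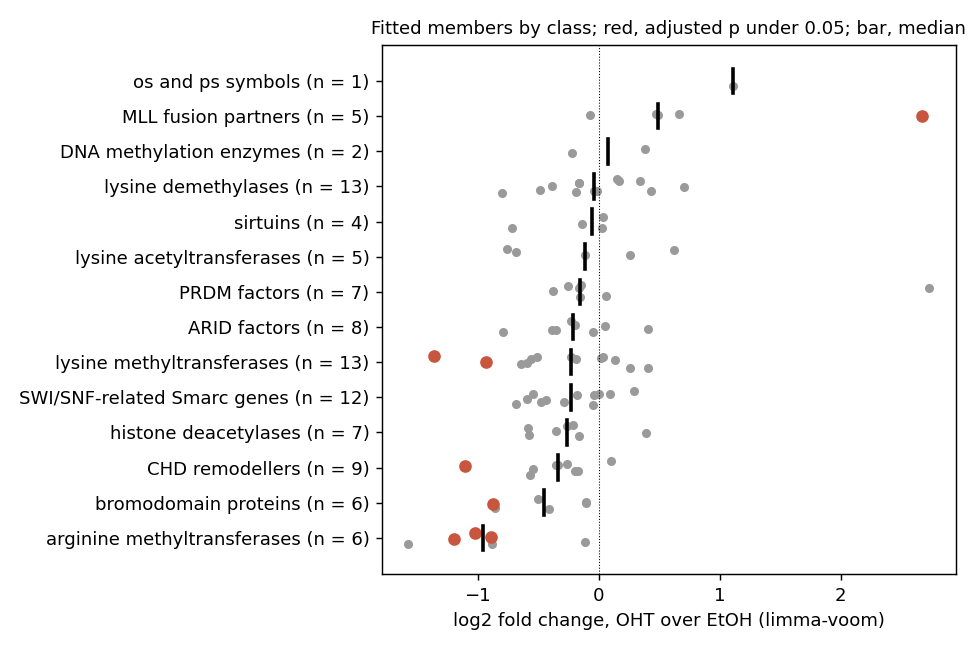
Limma-voom log2 fold change (OHT over EtOH) of each of the 98 fitted members, in rows by class, with members past an adjusted p of 0.05 in red and the class median as a bar. The arginine methyltransferases lie farthest to the left (median -0.95), and the only red point on the right is Mllt4 (2.68).

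No enzyme that removes a histone mark passed the test. Among 13 fitted lysine demethylases 8 lay below 0 and 5 above, with a median log2 fold change of -0.04. Kdm1a (LSD1), a demethylase of H3K4 targeted in myeloid leukaemia, lay at 812 and 717 with EtOH and 746 and 744 with OHT, with an interval for its log2 fold change of -0.49 to 0.41. Kdm6a and Kdm6b remove H3K27 methylation, the mark placed by Polycomb repressive complex 2. Kdm6a lay at 1531 and 992 against 962 and 925 (limma-voom adjusted p = 0.299), and Kdm6b at 1999 and 1559 against 1633 and 1521 (limma-voom adjusted p = 0.637). Kdm5c, which demethylates H3K4, had OHT libraries between the EtOH libraries (2014 and 1332 against 1616 and 1629.93). Kdm8 lay at 138 and 134 against 75.6 and 81.5, without overlap (limma-voom adjusted p = 0.1002). Kdm4b, an H3K9 demethylase named after its values were seen, lay at 435 and 312 against 703 and 528, without overlap. Its log2 fold change was the most positive of the 13 fitted demethylases (0.71 ± 0.25, limma-voom adjusted p = 0.0840).

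Of 7 fitted histone deacetylases 6 lay below 0, with a median of -0.26. Hdac1 and Hdac2 are the paired catalytic subunits of NuRD, Sin3 and CoREST complexes. Hdac1 lay at 1327 and 1536 with EtOH and 1134 and 1334 with OHT, with overlapping groups (95% interval of the log2 fold change -0.67 to 0.24). Hdac2 lay at 858 and 1022 against 578 and 688, without overlap (log2 fold change -0.57 ± 0.21, limma-voom adjusted p = 0.0962). Hdac3, of the NCoR complex, had a log2 fold change of -0.26 (limma-voom adjusted p = 0.413). Of the sirtuins, NAD-dependent deacylases, the nucleolar Sirt7 lay at 940.4 and 1142 against 1082 and 1030.4, and the mitochondrial Sirt5 at 151 and 128 against 74.7 and 99.4 (limma-voom adjusted p = 0.147). Sirt1 had 4 to 14 reads in each library and was not fitted.

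Of 7 lysine acetyltransferases 5 were fitted, and none passed the test. Kat8, which acetylates H4K16, lay at 335 and 319 with EtOH and 194 and 217 with OHT, without overlap (log2 fold change -0.68 ± 0.24, limma-voom adjusted p = 0.0787). Kat6a, an H3 acetyltransferase fused in some myeloid leukaemias, had OHT libraries (696 and 812) between its EtOH libraries (1066 and 611). Of the 7 Dnmt and Tet genes only Tet2 and Tet3, which oxidise methylcytosine, were fitted. Tet2, often mutated in myeloid disease, lay at 823 and 462 against 862 and 770.3 (log2 fold change 0.38, 95% interval -0.22 to 0.99), and Tet3 at 1766 and 1271 against 1365 and 1210.2. The maintenance methyltransferase gene Dnmt1 had 12 and 1 reads with EtOH and 2 and 1 with OHT, and Dnmt3a, Dnmt3b, Tet1, Kat2a and Setdb1 had at most 6 in any library. No direction is read from these counts.

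Mllt4 was the 1 member that rose. It lay at 144 and 111 with EtOH and at 994 and 681 with OHT, a 6.57-fold difference of the means (log2 fold change 2.68 ± 0.30, limma-voom adjusted p = 0.00150). In the authors' deposited table its means were 129 and 838, with an adjusted p of 1.85e-05. The other MLL fusion partners did not pass the test: Mllt1 (ENL), a reader of histone acylation, lay at 666 and 711 against 632 and 679.9, and Mllt6 at 896 and 747 against 1286 and 1032 (limma-voom adjusted p = 0.151). Mllt3, the gene of AF9 itself, had 33 and 17 reads with EtOH and 25 and 57 reads with OHT. On the scale of normalised reads 1 of its OHT libraries was above and 1 below both EtOH libraries (log2 fold change 0.48 ± 0.57). Mllt11, a small protein first found as a fusion partner, lay at 128 and 95.1 against 215 and 143, without overlap (limma-voom adjusted p = 0.188).

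Among the PRDM factors, zinc-finger proteins with a domain related to SET, Prdm1 stood out in size but not in the test. Prdm1 (BLIMP1), a transcriptional repressor known for driving plasma cell differentiation, had 5 and 3 reads with EtOH and 69 and 12 with OHT. Both OHT libraries were higher but lay far apart, and the log2 fold change of 2.73 ± 0.87 missed the threshold (limma-voom adjusted p = 0.0591). It entered the fit only through its OHT libraries, and without either of these it had too few reads to be fitted. Its adjusted p was 0.0463 in limma-trend and 0.0138 in limma-voom with a filter of 1 read, and neither is taken as support. Prdm10 lay at 215 and 59.9 with EtOH and 125 and 94.9 with OHT, so its EtOH libraries enclosed its OHT libraries. The better covered Prdm2 and Prdm4 had log2 fold changes of 0.06 and -0.25. The rule also takes Chd3os, now listed as Rnf227, Dnmt3aos and Smarca5-ps, which are outside the enzyme classes. Chd3os lay at 24.9 and 27.3 against 54.6 and 59.2 (limma-voom adjusted p = 0.0863), and as the library kit does not mark strand its reads and those of Chd3 cannot be told apart where they overlap.

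The number of the 7 falls that passed the test varied with the library left out. Without OHT library A the SE of the 7 was 0.35 to 0.47, against 0.20 to 0.29 with all 4 libraries. The log2 fold changes of Chd1l, Brd8 and Suv39h1 hardly moved there (-1.09, -0.84 and -0.94). Those of Prmt3, Prmt5, Prmt7 and Setd6 were smaller in size (-0.90, -0.59, -0.90 and -1.18). Leaving out OHT library A, none of the 7 falls passed, with log2 fold changes of -0.59 to -1.18 and limma-voom adjusted p of 0.101 to 0.434. In that fit 1.16% of all symbols fell and 5.36% rose (6.52% in either direction). Without OHT library B, Prmt3, Prmt5, Prmt7 and Setd6 still passed and Chd1l, Brd8 and Suv39h1 did not (limma-voom adjusted p of 0.0504 to 0.101); of all symbols 3.15% fell and 7.35% rose (10.5% in either direction). Without EtOH library B, Prmt5 missed (limma-voom adjusted p = 0.0574) while Arid5b, Chd1 and Chd9 passed, beside 5.50% of all symbols lower and 7.55% higher (13.1% in either direction). The sign of all 7 was negative in each of these fits. For each of the 7 both OHT libraries lay below both EtOH libraries, so that sign was fixed in advance and lends no support. With 1 sample left in a group that sample is assumed to vary like the others. Mllt4 passed in every omission, at log2 fold changes of 2.41 to 2.95. Without EtOH library A, Tet2 (log2 fold change 0.81, adjusted p = 0.0245), Hdac2 (-0.70, adjusted p = 0.0415), Kdm4b (adjusted p = 0.0244) and Prmt6 (adjusted p = 0.0222) passed as well in limma-voom, beside 9.86% of all symbols lower and 15.5% higher (25.3% in either direction). Other settings moved the members less: all 8 passed under each of 3 other scalings, 2 other filters, 1 transcript per symbol and limma-trend, to which Prmt6 or Prdm1 was added as given above. The share of all symbols that fell and rose there was 4.44% and 10.6% with total reads (15.0% in either direction), 4.87% and 11.2% with median of ratios (16% in either direction) and 4.17% and 11.7% with upper quartile (15.9% in either direction). It was 4.51% and 9.28% with 1 read in any library (13.8% in either direction), 6.53% and 9.54% with 30 reads in 2 libraries (16.1% in either direction), 5.75% and 10.1% with 1 transcript (15.8% in either direction) and 5.28% and 9.49% in limma-trend (14.8% in either direction).

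**Figure D3:**
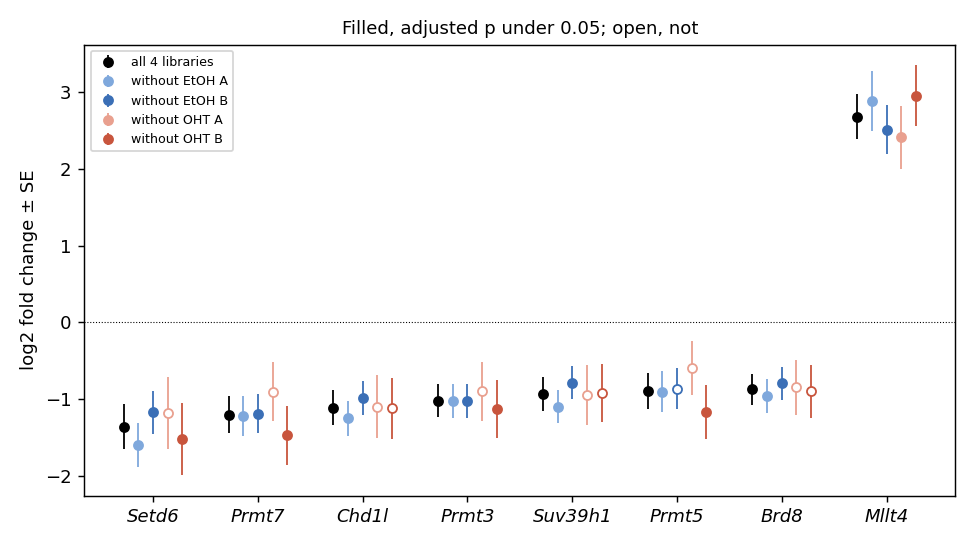
Limma-voom log2 fold change ± SE of the 8 members that passed the test, with all 4 libraries (black) and with each library left out in turn; filled points have an adjusted p under 0.05. In the fit without OHT library A (pale red) the points of all 7 genes that fell are open, and that of Mllt4 is filled.

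The members' EtOH libraries differed from each other by transcript length. Among 71 fitted members with a mean of at least 100 normalised reads and a known length, all 37 of 5000 nt or longer were higher in EtOH library A than in B, with a median log2 ratio of 0.47. Of the 34 shorter ones 14 were higher in A, with a median of -0.03. In the OHT libraries the medians were 0.10 and -0.01. All 7 members that fell were under 5000 nt, and the 1 that rose was longer. Spearman's rho of length with the log2 ratio of A to B was 0.68 for EtOH and 0.36 for OHT, and with the log2 fold change 0.27, over the same 71 members, which share their libraries. The part of this length pattern in the results was not tested.

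**Figure D4:**
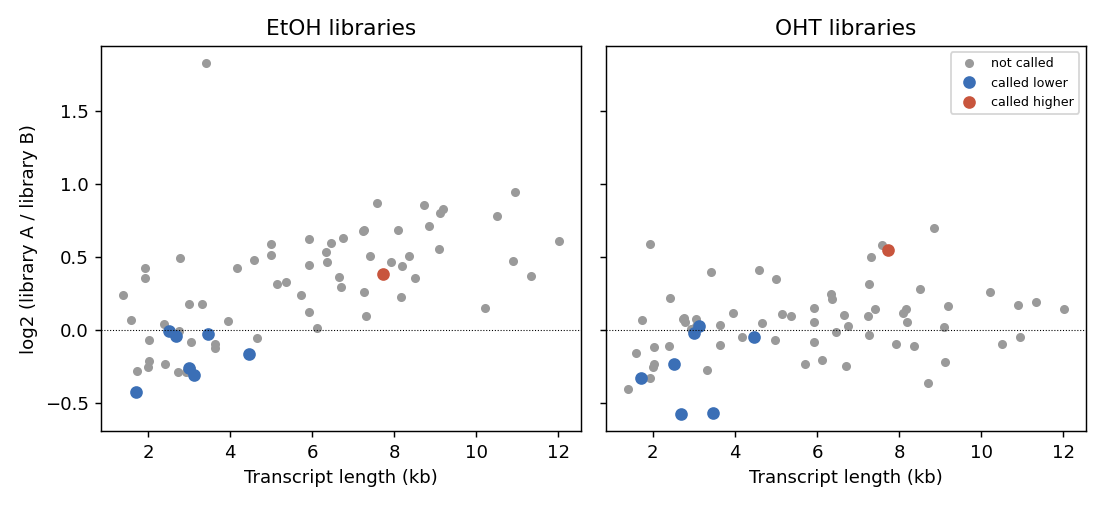
Log2 ratio of library A to library B against transcript length (kb) for 71 fitted members, with the EtOH libraries on the left and the OHT libraries on the right; members that fell are blue and the riser is red. In EtOH all members of 5 kb or longer lie above 0, and all blue points lie under 5 kb.

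Several members that most cells use were listed close to 0, and levels differed with the number of transcripts of the gene. Leaving out the 3 symbols ending in os or ps, the 47 members with 1 curated RefSeq transcript had a median level of 137 normalised reads per kilobase, with 6 of them not fitted. The 74 with 2 or more had a median of 20.2, with 20 not fitted. Setdb1, Smarca4, Dnmt1 and Prmt1 were among the latter, but so was Setd8, with 4 curated transcripts and 665 normalised reads per kilobase. The part of transcript number in the low values was not tested. Those values do not show that the genes were silent. In all, 28 of 126 members were not fitted, and 10 had at most 3 reads in each group.

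**Figure D5:**
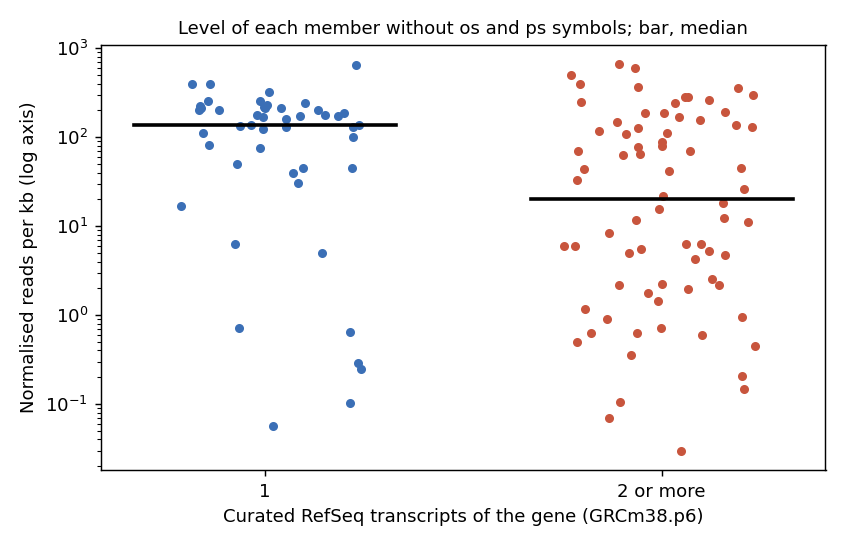
Level of each member, without the symbols ending in os or ps, in normalised reads per kilobase (log axis, mean of the 4 libraries) by the number of curated RefSeq transcripts of its gene. The bar is the median, 137 for genes with 1 transcript and 20.2 for genes with 2 or more.

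Partner subunits and related enzymes outside the name rule were read in the same fit. Of 70 fitted genes in 7 lists of such partners, 7 fell and none rose in limma-voom, beside 5.68% and 10% of all symbols. A negative log2 fold change was found for 50 of the 70, beside 54.4% of all symbols fitted. Each list has only 7 to 20 fitted genes. The SWI/SNF accessory subunits had 2 of 8 lower: Bcl7a lay at 579.7 and 616 with EtOH and 189.8 and 229 with OHT, and Phf10 at 1189 and 1570.3 against 618 and 768. Hells, a remodeller needed for DNA methylation at repeats, fell from 971 and 1026 to 411 and 416. In the COMPASS list of MLL and SETD1 partners, Rbbp5 fell (1028 and 905 against 574 and 548), and all 7 fitted genes lay below 0. Of 9 other methyltransferases Smyd3, Smyd5 and Whsc1 fell. None of 20 fitted genes of deacetylase complexes, of 8 other acetyltransferases or of 8 genes of DNA methylation and heterochromatin passed the test, and 6 of the 8 acetyltransferases lay above 0. The 8 S-phase genes that fell did so in the same libraries as these genes and as the 7 members. The summed macrophage markers, which were mostly Emr1, were higher there. The part of either in these results was not tested.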

How the data were processed

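RNA was measured in 4 libraries, 2 per group. Per the labels' protocols, a TruSeq RNA kit was used, in a version that is known not to mark strand. TopHat, DESeq and mm9 are listed in the submitters' processing notes, with no role or version, and the read counter is not given in the sources used here. The deposited signal columns are, per the file headers, base means of each group, and as the values show the authors added 1 read per library before dividing by size factors. The deposited fold ratio, log2 and p-value columns are the authors' own comparison. Every group mean solved to a unique pair of whole reads (100% of 18061 transcripts in both groups; 0.659% of EtOH and 0.770% of OHT means solved after being moved by up to 0.1%; 100% of 2000 simulated means per group were recovered). Size factors were 1.21 and 0.768 for EtOH and 1.19 and 0.896 for OHT.

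Solved reads were summed per symbol and fitted with limma-voom (limma 3.58.1, R 4.3.3) for symbols with at least 10 reads in 2 libraries, with 2 residual degrees of freedom before variance pooling and Benjamini-Hochberg adjustment over all symbols fitted. Reads were simulated for 11087 symbols of this comparison (dispersion 0.05, set and not estimated), with 50 genes changed at each fold. The test recovered 4% of changes of 1.5-fold, 32% of those of 2-fold and 100% of those of 4-fold or 8-fold. Of its 124 calls 4.84% were false. The data gave 1739 calls of 11072 symbols. With fewer genes changed the adjustment is stricter, so these shares are not the power in the data. A missing call does not show an unchanged gene. Lengths are those of GENCODE M21 (GRCm38), found for 145 of 146 transcripts; since the notes name mm9, no coordinate is carried between builds. Of 126 symbols 18 had several transcripts, whose shared reads may be split or lost. The members and lists were chosen with earlier results of these data known. Named are all members that passed either test, the 2 with the highest mean in each class and a fixed list of 30 studied genes (25 with a row), of which 1 is not reported here; others are named after their values were seen. Alternatives were other scalings, filters, 1 transcript per symbol, limma-trend and omission of each library. The columns held 0 samples outside the series.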

Additional observations from a re-analysis of the deposited data

How the results depend on the processing

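The 8 members that passed the test were called under each of the 3 other scalings, and the median of all symbols moved by at most 0.09 (log2) between them. Members called higher numbered 2 with no filter beyond 1 read and 2 in limma-trend, each time with Prdm1. In the deposited table of the authors, 3 of the 8 transcripts had an adjusted p under 0.01. With 1 library left out, members called ranged from 1 to 12, those higher from 1 to 3 and those lower from 0 to 9. The median log2 fold change ranged then from -0.43 to -0.0478 for sirtuins, -0.50 to 0.30 for acetyltransferases, -0.57 to -0.32 for bromodomain genes, -0.53 to -0.0377 for CHD remodellers, -0.49 to 0.0292 for ARID factors, -0.31 to 0.28 for lysine demethylases and -0.29 to 0.15 for PRDM factors. It was -0.68 for acetyltransferases with no filter beyond 1 read, and -0.37 for bromodomain genes with upper-quartile scaling. Signs of small, uncalled changes turned: with total-read, median-of-ratios and upper-quartile scaling Kdm1a was at 0.0168, 0.0032 and 0.0449 and Kdm5c at 0.0351, 0.0260 and 0.0660, and Mllt1 was at 0.0164 with upper-quartile scaling. With 1 library left out the log2 fold change ranged from -0.0138 to 0.81 for Tet2, -0.46 to 0.0121 for Tet3, -0.25 to 1.34 for Mllt3, -0.20 to 0.30 for Prdm2, -0.18 to 0.90 for Smarcb1, -0.26 to 0.0536 for Brd1, -0.50 to 0.30 for Kat6a, -0.12 to 0.0533 for Kdm1a, -0.31 to 0.28 for Kdm5c, -0.35 to 0.0131 for Kdm6b, -0.30 to 0.33 for Setd5 and -0.11 to 0.17 for Sirt7. The cause was not tested. No paired analysis was possible because the deposited columns carry no replicate numbers. The 28 members that were not fitted had too few reads for the filter; the cause of that was not tested.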
